A study of Homo sapiens with 44 samples.

Results

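The neurofilament and neurite growth genes described here are 10 genes of the neuronal cytoskeleton and growth cone: NEFL, NEFM, NEFH, INA, PRPH, STMN2, GAP43, TUBB3, MAP2 and MAPT. They were taken by symbol, by a rule with no threshold on a measured value though with earlier results of these data known, and all 10 were found among the 19923 genes of each count table. Neurofilaments are the intermediate filaments of axons, built as heteropolymers of a light, a medium and a heavy chain (NEFL, NEFM, NEFH) together with alpha-internexin (INA) and, in peripheral neurons, peripherin (PRPH). The other members act on microtubules or at the growing tip: STMN2 is a stathmin that binds tubulin in growth cones, GAP43 is a growth cone membrane phosphoprotein, TUBB3 is the neuronal beta-tubulin, and MAP2 and MAPT (tau) bind microtubules, mainly in dendrites and axons respectively. Neuroblastoma arises from sympathoadrenal precursors, and these genes are commonly read as signs of neuronal differentiation in its cell lines.

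The study measured RNA in 2 human neuroblastoma cell lines, Kelly and NGP, both labelled wild type with an amplified MYCN gene. STM2457, an inhibitor of the m6A methyltransferase METTL3, was given to Kelly cells for 1 or 6 days and to NGP cells for 6 days at 8 µM, and the control cells received DMSO. The fourth experiment was a xenograft of Kelly cells under the skin of nude mice of both sexes, with STM2457 at 50 mg/kg or vehicle alone injected daily into the peritoneum for 14 days; the vehicle tumours carry the label DMSO. Each group has input libraries (sequenced poly(A) RNA fragments) and RIP libraries, made from the fragments that an antibody against m6A pulled down, which gives 16 groups and 44 libraries, with 3 per group and 2 in the xenograft. The labels do not say whether replicates came from separate cultures or which mouse gave which library, so the p-values measure the spread between these libraries, which may be technical. Each line is a single established line, and the tumours also hold cells of the mouse host.

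By the median, the inputs were deepest for Kelly at 1 day (24.86 M fragments assigned to genes, 24.06 to 26.56 M) and shallowest for the xenograft (3.75 M, 2.14 to 7.27 M). Kelly at 6 days had a median of 12.56 M (5.76 to 31.49 M) and NGP 10.25 M (5.49 to 11.6 M), and the RIP libraries of all experiments held 4.68 to 36.5 M. The spread between replicate inputs (biological coefficient of variation) was 0.0725 for Kelly at 1 day, 0.0913 for Kelly at 6 days, 0.24 for NGP and 0.448 for the xenograft. Each experiment lay in file folders of its own, so experiment and any batch cannot be told apart. For Kelly at 1 day the inputs and the RIP libraries lay in separate folders, so there library type and folder cannot be told apart in the pulldown ratios. Adrenergic neuroblastoma markers summed to 12160 to 38410 CPM (counts scaled by each library's total of assigned fragments) in every group of inputs, with 9 or 10 of 10 at 1 CPM or more. Of the Schwann cell and glia markers, 5 of 6 were in the tables, and their sum was 21.95 CPM at most. The 12 stroma and blood markers summed to 60.3 CPM at most, and HBB was at 0 in 7 of the 8 groups. All markers are human genes counted on the human genome, so their sums do not measure the mouse host cells of the tumours. Reads from mouse RNA were not examined here. One RIP library stood apart for NEFH and MAP2: replicate 1 of STM2457-treated Kelly at 6 days held 1232.5 CPM of NEFH against 356.7 and 251.0 in its replicates, and 357.1 CPM of MAP2 against 102.5 and 84.5. The xenograft RIP replicates also lay far apart. In bulk RNA, fewer cells of a type and less RNA per cell cannot be told apart.

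In GRCh38, the genes lie apart from each other except for the neighbours NEFL at chr8:24950955-24957110 and NEFM at chr8:24913758-24919098. NEFH lies at chr22:29480218-29491390, INA at chr10:103277138-103290346 and PRPH at chr12:49293252-49298686. STMN2 lies at chr8:79610814-79666175, GAP43 at chr3:115623324-115721490 and TUBB3 at chr16:89921392-89938761, with MAP2 at chr2:209424058-209734118 and MAPT at chr17:45894382-46028334. TUBB3 shared 1584 of its 4430 exon bases (35.8%) with another protein-coding gene. Fragments on them were not counted, so its level is a lower estimate. Its main mRNA (MANE Select transcript) has 1706 bases, and how many of these are shared was not examined. All TUBB3 values here rest on the exon bases left, which may hold little of that mRNA. The other 9 members shared no exon base. The lowest count of any member in any library was 35, for TUBB3, and all 10 passed the low-count filter in every comparison.

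Per unit of exon length, NEFH was the most abundant member in the controls of both cell lines. MAPT and, by the fragments counted, TUBB3 were the least abundant in every experiment. The true rank of TUBB3 may be higher, since fragments on its shared exon bases were not counted. TPM values are counts per exon length, scaled by the sum of these rates over all genes of the library. In Kelly at 1 day, the control inputs held 1116 ± 21.5 TPM (SD, n = 3) of NEFH, 430.5 ± 7.03 of STMN2 and 382 ± 31.4 of GAP43. INA at 227 ± 18.0 TPM and PRPH at 224 ± 26.6 TPM did not differ beyond their spread, and NEFM followed at 178 ± 10.5 TPM. The light chain NEFL was at 90.5 ± 7.97 TPM, below MAP2 at 104 ± 5.32 TPM. At the bottom were TUBB3 at 37.9 ± 4.37 TPM and MAPT at 20.8 ± 0.694 TPM. In Kelly at 6 days the order began with NEFH at 597 ± 17.7 TPM and GAP43 at 490.0 ± 8.33 TPM, and PRPH at 408 ± 4.00 TPM could not be separated from STMN2 at 407 ± 10.3 TPM. MAP2 was then at 26.1 ± 0.272 TPM, and its control inputs at 1 day (304 to 335 CPM) and 6 days (101 to 103 CPM) did not overlap. This was not particular to MAP2. PRPH, for example, read 170.1 to 209.7 CPM at 1 day and 425.6 to 434.5 CPM at 6 days. Of the members only NEFL overlapped (92.7 to 110.1 and 91.7 to 93.9 CPM). The share over all genes was not counted, and time cannot be told apart from experiment and batch. In the tumours the leading 3 were GAP43 at 728 ± 58.1, PRPH at 516 ± 12.5 and NEFH at 515 ± 58.5 TPM (SD, n = 2).

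**Figure D1:**
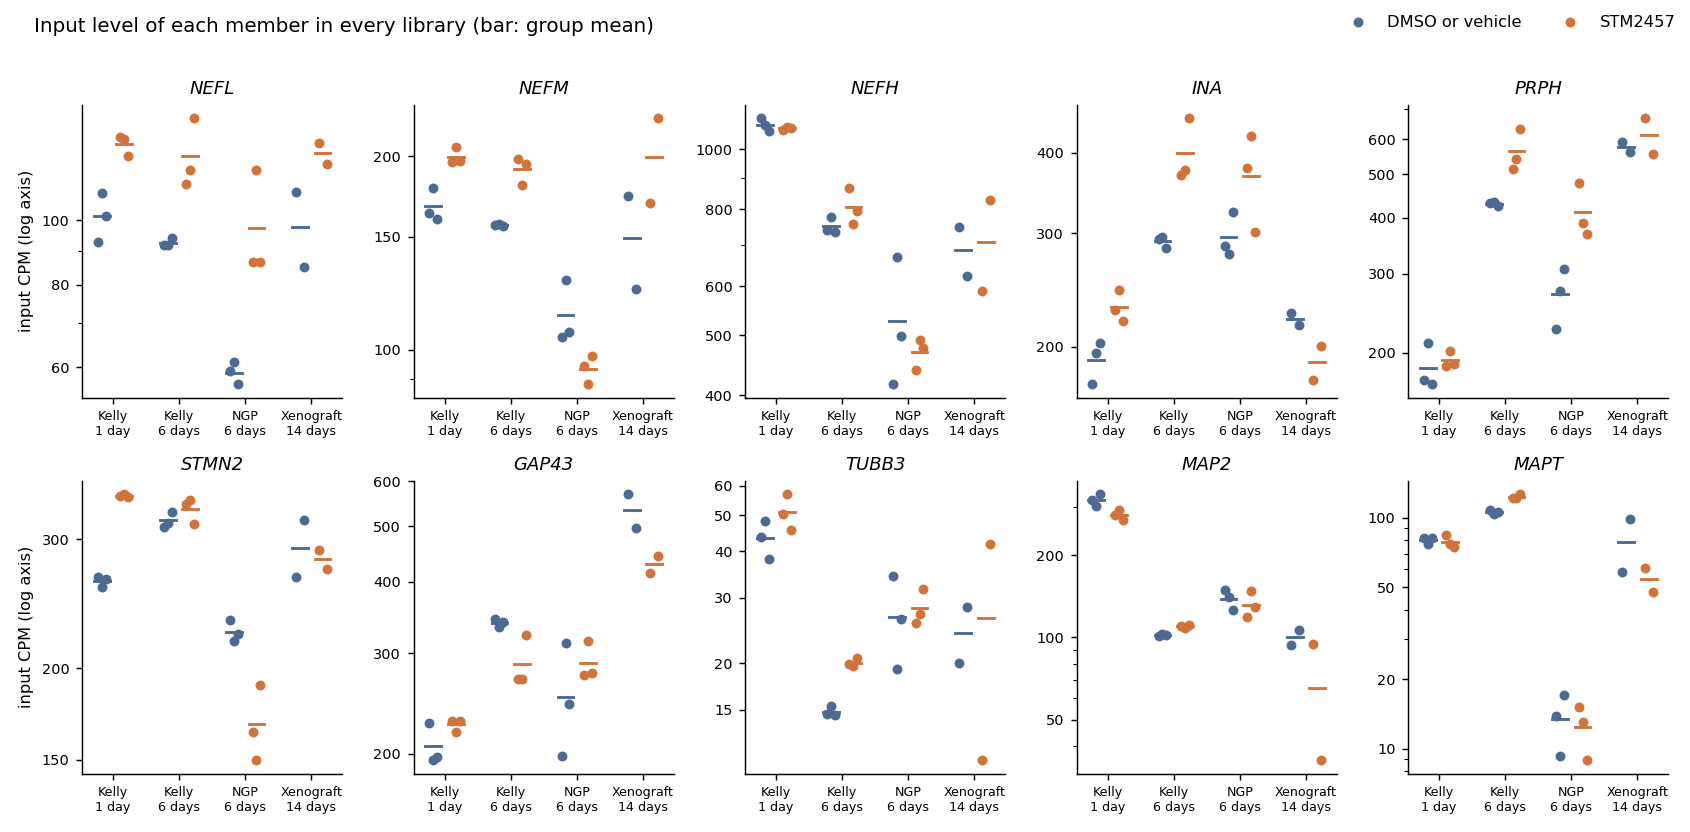
Input level of each of the 10 members, in CPM on a log axis, in the 4 experiments; each point is 1 library, blue for DMSO or vehicle and orange for STM2457, and the bars are group means. In Kelly, the STM2457 points of NEFL lie above all control points at both times, MAPT in NGP lies at 8.9 to 17.1 CPM, and MAP2 is highest in Kelly at 1 day.

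Kelly and NGP, compared in the control inputs at 6 days, held different amounts of nearly every member. By edgeR, 9 of 10 members were called at an adjusted p below 0.05, against a background of 60.8% of the 12940 genes tested, so the count itself says little about these genes. MAPT, the axonal microtubule-binding protein tau, had the largest difference. Its 3 Kelly inputs read 108.1, 103.4 and 105.5 CPM and its NGP inputs 13.85, 9.31 and 17.1 CPM, with no overlap, and its fitted difference was 8.82-fold (log2 3.14 ± 0.167 SE, adjusted p 1.38e-07). PRPH, NEFL, STMN2, NEFH, NEFM and GAP43 were 1.54- to 1.82-fold higher in Kelly. TUBB3 was lower in Kelly, with 14.5 to 15.4 CPM against 19.3 to 34.3 CPM (log2 -0.65 ± 0.196, adjusted p 0.0146), as was MAP2 (log2 -0.24 ± 0.0869, adjusted p 0.0348). TUBB3 lost the call without Kelly replicate 1 or 3 or NGP replicate 1 (adjusted p 0.056 to 0.0595). MAP2 lost it without any Kelly replicate or NGP replicate 1 (0.053 to 0.121), without the low-count filter and by DESeq2. INA did not pass (log2 0.17 ± 0.0842, adjusted p 0.104), though it passed without NGP replicate 3 (0.0314).

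With STM2457, most neurofilament mRNAs rose in Kelly cells, by 1.13- to 1.27-fold where the change passed the test. In Kelly at 1 day, 4 members rose and 1 fell, where 9.41% of the 13246 genes tested rose and 8.06% fell; at 6 days 5 rose and 1 fell, where 11.9% of 12773 genes rose and 14.7% fell. The members' median change was 0.15 on the log2 scale at both times, against 0.0074 and -0.0045 over all genes. In NGP only NEFL was called, where 2.07% of 12289 genes rose and 2.16% fell, and the members' median was -0.065 against 0.01. In the xenograft no member was called, and neither was any of the 11329 genes tested (0% in each direction by edgeR, with 968 genes at an unadjusted p below 0.05 and 122 called by DESeq2).

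NEFL, the light chain on which the other chains assemble, was the member that rose in both cell lines. Its inputs in Kelly at 1 day read 92.7, 110.05 and 101.6 CPM with DMSO and 133.7, 132.55 and 125.0 CPM with STM2457. Every treated library lay above every control, and the fitted rise was 1.26-fold (log2 0.34 ± 0.0618, adjusted p 0.00112). At 6 days the Kelly controls held 91.8, 91.7 and 93.9 CPM and the treated cells 113.55, 119.3 and 142.75 CPM, a 1.24-fold rise (log2 0.31 ± 0.0755, adjusted p 0.00559). In NGP the values were 59.2, 61.05 and 56.6 CPM against 86.5, 119.15 and 86.4 CPM, again without overlap, for a 1.57-fold rise (log2 0.65 ± 0.175, adjusted p 0.0343). The NGP call was lost without control replicate 1 or 3 or STM2457 replicate 1 or 2 (log2 0.47 to 0.73, adjusted p 0.0927 to 0.169). The tumours read 110.45 and 85.0 CPM against 131.0 and 121.7 CPM, which did not pass (adjusted p 0.603).

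The medium chain NEFM and the heavy chain NEFH, carry the long tails that project from the filament. NEFM rose in Kelly at 1 day from 163.2, 178.4 and 159.7 CPM to 196.2, 206.5 and 196.6 CPM (log2 0.23 ± 0.0529, adjusted p 0.00551). At 6 days it rose from 156.4, 157.1 and 155.8 CPM to 198.05, 180.5 and 194.8 CPM (log2 0.18 ± 0.0622, adjusted p 0.043), a call that was lost without any of the 3 controls or without STM2457 replicate 1 (adjusted p 0.0609 to 0.121). Both treated groups lay wholly above their controls. In NGP the order was the opposite, with 104.7, 128.2 and 106.6 CPM in controls and 94.2, 88.4 and 97.6 CPM in treated cells, and the change did not pass (log2 -0.35 ± 0.161, adjusted p 0.254). NEFH overlapped between treated and control inputs in all 4 experiments, with log2 changes from -0.25 in NGP to 0.17 in the xenograft and the smallest adjusted p at 0.455.

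INA, which co-assembles with the neurofilament chains, rose in Kelly at both times. Its inputs read 175.1, 195.6 and 202.7 CPM against 228.5, 245.1 and 219.7 CPM at 1 day (log2 0.25 ± 0.0562, adjusted p 0.00527). At 6 days they read 293.7, 296.4 and 285.05 CPM against 369.4, 376.8 and 453.0 CPM (log2 0.34 ± 0.0711, adjusted p 0.00201). PRPH, the intermediate filament of peripheral neurons, overlapped between the groups in Kelly at 1 day (log2 0.035 ± 0.0675, adjusted p 0.78). At 6 days it rose from 431.3, 434.5 and 425.55 CPM to 514.5, 542.0 and 632.0 CPM (log2 0.27 ± 0.07, adjusted p 0.00815). The NGP inputs of PRPH held 226.2, 275.2 and 308.0 CPM with DMSO and 478.5, 390.4 and 368.8 CPM with STM2457. These did not overlap, but the change just missed the threshold (log2 0.54 ± 0.161, adjusted p 0.057) and passed it without STM2457 replicate 3, without the low-count filter and by DESeq2 (adjusted p 0.0192 to 0.047). In NGP, the summed stroma and blood markers were 16.8 to 27.4 CPM in controls and 35.7 to 60.3 CPM in treated inputs. Most of that sum was the single gene COL3A1 (8.95 to 19.7 and 28.6 to 51.9 CPM). CD68 had means of 5.35 and 6.58 CPM and LUM of 2.1 and 1.1 CPM, while PECAM1, PTPRC, HBB and HBA2 were at 0 in both groups. The part of these markers in the NGP values was not tested.

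STMN2, which promotes microtubule turnover in growth cones, rose in Kelly at 1 day from 266.5, 258.2 and 265.0 CPM to 343.6, 345.5 and 343.0 CPM. With a log2 change of 0.36 ± 0.0423 (adjusted p 2.29e-05), this was the largest rise of any member there, and the groups were far apart relative to their spread. At 6 days the Kelly groups overlapped, at 311.8 to 327.2 CPM against 314.5 to 338.9 CPM (log2 -0.058 ± 0.061, adjusted p 0.529). In NGP all treated libraries (163.7, 149.6 and 189.5 CPM) lay below all controls (232.3, 217.9 and 222.4 CPM), with a log2 change of -0.49 ± 0.147 that did not pass (adjusted p 0.0581). It passed without STM2457 replicate 3, without the low-count filter and by DESeq2 (adjusted p 0.0118 to 0.0431).

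GAP43, a protein kinase C substrate at the growth cone membrane, was the only member that fell in Kelly at 6 days. Its inputs read 343.9, 332.9 and 340.0 CPM with DMSO and 270.0, 269.8 and 323.0 CPM with STM2457, without overlap (log2 -0.35 ± 0.0694, adjusted p 0.00128). At 1 day its groups overlapped at 194.7 to 226.7 CPM and 218.7 to 228.4 CPM (log2 0.10 ± 0.0571, adjusted p 0.252); without control replicate 1 the change passed as a rise (log2 0.18, adjusted p 0.0204). In the tumours GAP43 read 569.0 and 497.5 CPM with vehicle and 415.1 and 443.85 CPM with STM2457, which did not pass (log2 -0.19 ± 0.145, adjusted p 0.777).

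Of the 3 microtubule members, TUBB3 was called once, MAP2 once and MAPT in no experiment. TUBB3 was called as higher in Kelly at 6 days, from 14.6, 15.4 and 14.5 CPM to 19.98, 19.7 and 20.6 CPM (log2 0.32 ± 0.113, adjusted p 0.0451), although the call was lost without any 1 of the 6 inputs (adjusted p 0.0584 to 0.114), without the low-count filter (0.0573) and by DESeq2 (0.0746). At 1 day its log2 change was 0.21 ± 0.0932 (adjusted p 0.138), and it passed without control replicate 2 (0.0468). MAP2 fell in Kelly at 1 day from 318.4, 303.8 and 334.7 CPM to 280.7, 292.3 and 270.0 CPM (log2 -0.21 ± 0.047, adjusted p 0.00522). At 6 days its treated CPM values (108.0 to 111.2) lay just above the controls (101.0 to 103.2), while the change after TMM scaling was -0.0045 ± 0.0603 (adjusted p 0.967), with a sign that depended on the size factors. MAPT was called in no experiment, with the smallest adjusted p at 0.176 in Kelly at 6 days. In the xenograft, STM2457 replicate 2 held 35.4 CPM of MAP2 and 42.0 CPM of TUBB3, against 94.7 and 10.97 CPM in replicate 1; without replicate 1 the fit called MAP2 as lower (log2 -1.37, adjusted p 0.000821) and NEFM as higher (0.76, 0.00411).

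**Figure D2:**
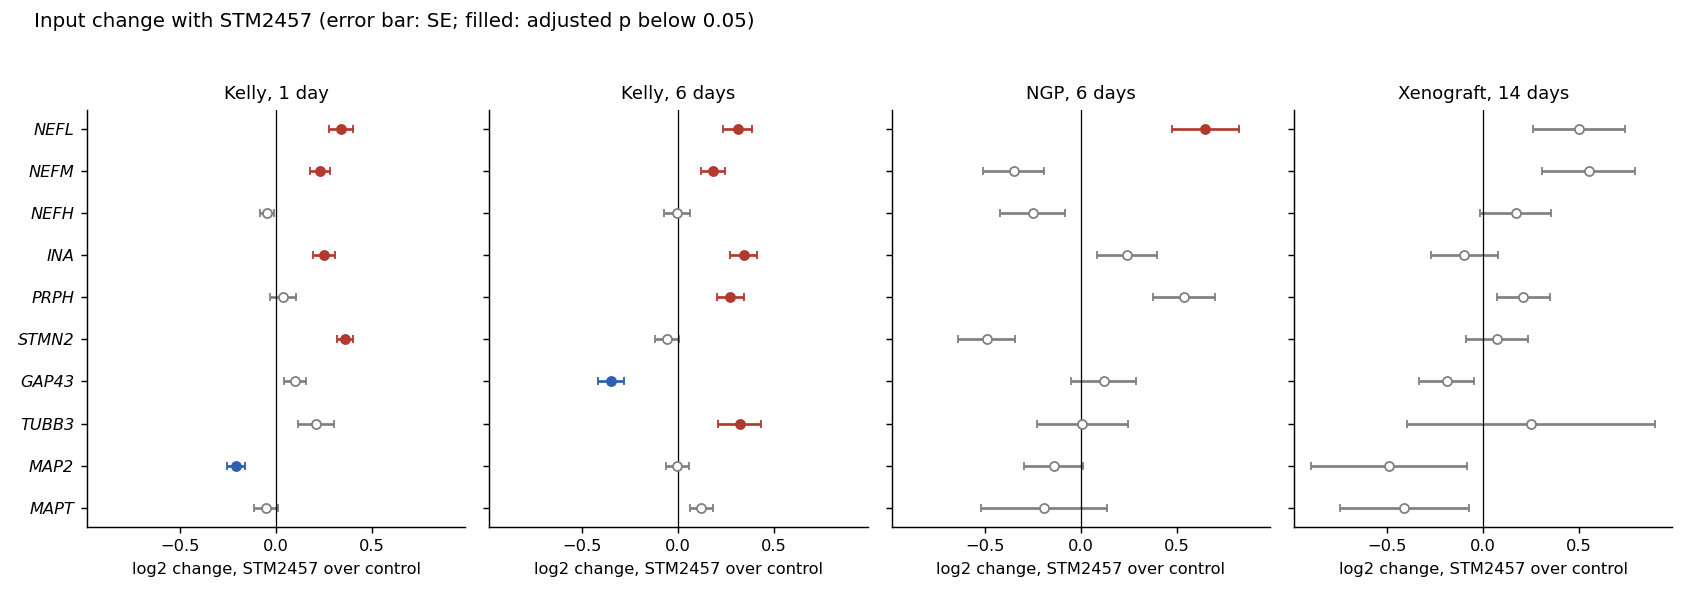
Fitted log2 change of input with STM2457 over control for the 10 members in each experiment; the error bars are standard errors, filled points passed an adjusted p below 0.05 (red up, blue down) and open points did not. Called changes are 0.36 or smaller in size in Kelly, NEFL is at 0.65 in NGP, and the xenograft has no filled point.

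The response itself differed between the times in Kelly for the growth cone pair. In a test of the interaction of treatment and experiment, 2 of 10 members were called, STMN2 and GAP43, against 8.41% of 13773 genes. The change of STMN2 was lower at 6 days than at 1 day by a log2 difference of -0.40 ± 0.0739 (adjusted p 0.00104), and that of GAP43 by -0.44 ± 0.0957 (adjusted p 0.00469). MAP2 missed the threshold at 0.22 ± 0.0771 (adjusted p 0.08). It passed by DESeq2, without the low-count filter and without control replicate 2 at 1 day, control replicate 2 at 6 days or any STM2457 replicate at 6 days (0.0221 to 0.0489). PRPH, at 0.26 ± 0.102 (adjusted p 0.134), passed without the low-count filter and without STM2457 replicate 1 at 6 days (0.0104 and 0.0127). The 1 day and 6 day libraries are separate experiments with their own controls. Between Kelly and NGP at 6 days, no member's change differed by edgeR, against 1.36% of 13448 genes. The smallest adjusted p values were those of NEFM (log2 difference 0.55 ± 0.15, adjusted p 0.0829) and STMN2 (0.45 ± 0.138, adjusted p 0.125). DESeq2 called these 2 (adjusted p 0.0245 and 0.0202), and edgeR called STMN2 without NGP STM2457 replicate 3 (0.0282).

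The fitted pulldown over input ratio is scaled to the typical gene by TMM factors. A fitted log2 ratio below 0 means less pulldown than the typical mRNA, not the absence of m6A. Ratios given per library are scaled by library totals only, so their sign and size can differ from the fit. PRPH was the lowest member in all 4 experiments by the fitted ratio, although in Kelly at 6 days STMN2 overlapped it. As the CPM of each control RIP library over the mean input CPM of its group, it read 0.074, 0.087 and 0.097 at 1 day and 0.068, 0.090 and 0.078 at 6 days in Kelly. The NGP libraries gave 0.130, 0.0759 and 0.1075 and the tumours 0.036 and 0.046. The fitted log2 ratios were -3.48 ± 0.139, -3.72 ± 0.222, -3.36 ± 0.218 and -4.57 ± 0.636 in that order, with adjusted p from 8.14e-11 to 0.00882. In NGP only 78 of 13088 genes had a lower ratio, which puts PRPH at the 0.596th percentile. Elsewhere it lay between the 4.13th and the 12th percentile. The PRPH mRNA is rich in GC, at 63.4%, which is above 92.55% of 13253 mRNAs. Over all genes with a matched mRNA, Spearman's correlation of GC content with the control ratio was -0.50 in NGP. The other experiments gave 0.053 to 0.098. Whether GC content bears on the NGP percentile of PRPH was not tested. A count of depleted genes (log2 ratio of -1 or lower and an adjusted p below 0.05) is common here, at 29.1% of 13669 genes for Kelly at 1 day, 27.3% of 13324 for Kelly at 6 days, 19% of 13088 for NGP and 2.15% of 12626 for the xenograft. In the xenograft the PRPH call was lost without either control RIP library or either STM2457 input (log2 -4.32 to -4.89, adjusted p 0.0625 to 0.068).

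The m6A writer acts on adenosines in a short consensus of which GGAC is the core. A motif of 4 letters is no evidence of a methylated site, and the PRPH mRNA, searched on its own strand, held 11 GGAC, or 6.11 per kb, above 82.1% of the 13253 mRNAs matched in GENCODE 44. The longer motif GGACT, on the mRNA strand and a subset of the GGAC matches, was found in 91.6% of those mRNAs, and GGAC in 99.5%; PRPH and GAP43 held no GGACT.

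The exon layout of PRPH sets it apart from the other intermediate filament members. Its MANE Select transcript has 9 exons, which is also the median over the 13253 matched mRNAs. Its longest exon has 599 bases, shorter than in all but 16.5% of mRNAs. NEFL, NEFM, NEFH and INA have 3 or 4 exons and a longest exon of 1987 to 2542 bases. Outside the filament genes, GAP43 has 3 exons and a longest exon of 690 bases, near that of PRPH. Its control log2 ratio was 0.37 to 0.55 in the 4 experiments. Whether exon layout bears on the ratio of PRPH was not tested. Methylation near splice junctions is known to be low and methylation in long exons to be high, as background. Across the 10 members, Spearman's correlation of the control ratio with exon number was -0.30 for Kelly at 1 day, -0.62 for Kelly at 6 days, -0.32 for NGP and -0.84 for the xenograft. Over all tested genes with a matched mRNA (12081 to 13253) it was -0.32, -0.28, -0.17 and -0.24. With the longest exon the correlation was 0.41, 0.15, 0.29 and 0.25 over the members and 0.31, 0.31, 0.35 and 0.21 over all genes. Exon number was 1 of 11 features computed, and in NGP the GC content (-0.50) and GGAC per kb (-0.34) had larger correlations over all genes than it did. These are correlations across genes within shared libraries, given as a description. MAP2 with 16 exons had control log2 ratios of 0.15, 0.18, 0.26 and -0.68 in the 4 experiments. MAPT with 13 exons had 0.37, -0.53, -0.77 and -0.50.

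**Figure D3:**
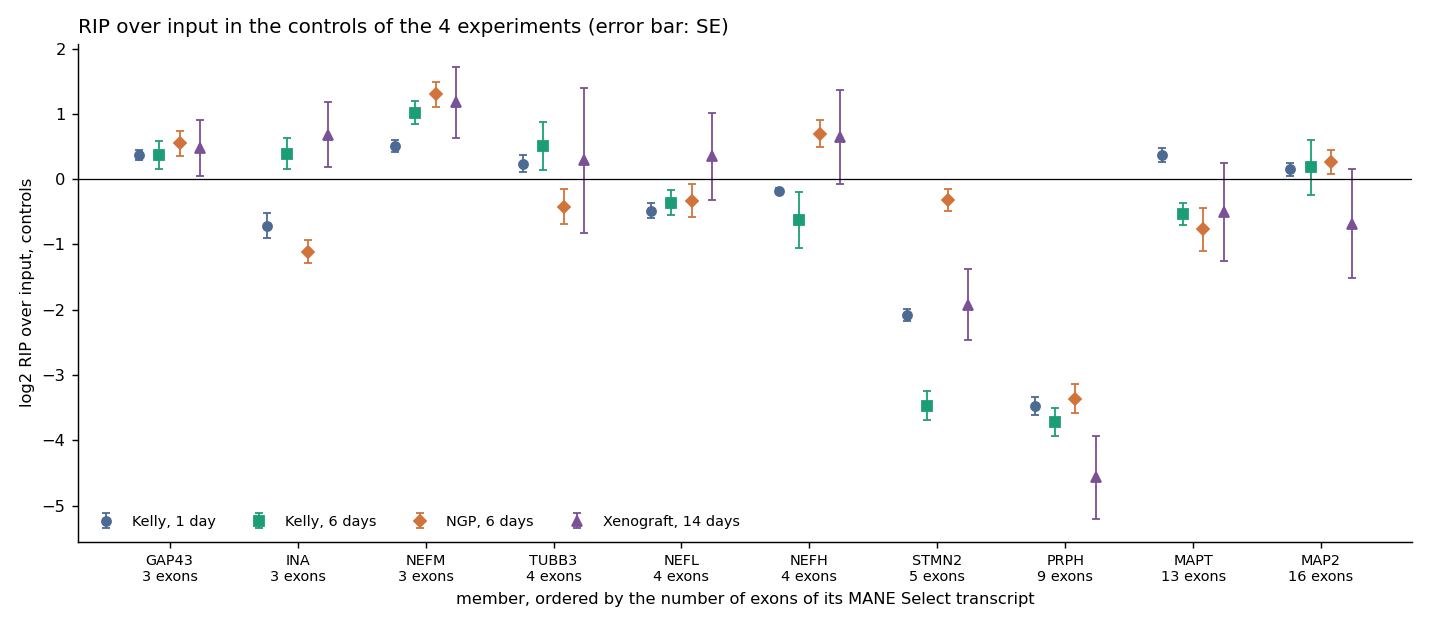
Fitted log2 ratio of RIP over input in the controls for each member, ordered from 3 to 16 exons, in the 4 experiments (symbols); the error bars are standard errors and 0 is the typical gene. PRPH lies between -3.36 and -4.57 in every experiment, and STMN2 ranges from -3.47 in Kelly at 6 days to -0.32 in NGP.

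STMN2 was depleted in Kelly but near the typical gene in NGP. Its control ratios were 0.200, 0.218 and 0.265 in Kelly at 1 day and 0.109, 0.0945 and 0.0755 in Kelly at 6 days, and 0.713, 0.864 and 0.977 in NGP. No Kelly library came near the NGP range, and the fitted log2 ratios were -2.08 ± 0.0959 (adjusted p 4.93e-10), -3.47 ± 0.22 (adjusted p 1.07e-07) and -0.32 ± 0.174 (adjusted p 0.12). In the tumours the ratios were 0.375 and 0.159, which did not pass by edgeR (log2 -1.92 ± 0.55, adjusted p 0.0887) but did by DESeq2 (0.0114) and without either STM2457 RIP library (0.0193 and 0.0202). A comparison of the control ratio between Kelly and NGP at 6 days, added after the values had been seen, gave a log2 difference of -2.98 ± 0.253 for STMN2 (adjusted p 1.92e-06). It turned to 1.01 (adjusted p 0.191) when libraries were scaled to the 13 mitochondrial mRNAs, under which the all-gene median went from -0.084 to 3.91, so STMN2 was below that median under both.

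NEFM was the member with the most pulldown. Its control ratios were 1.469, 1.263 and 1.362 at 1 day and 1.856, 1.822 and 2.592 at 6 days in Kelly, 2.113, 2.599 and 3.175 in NGP, and 3.043 and 1.504 in the tumours, all above 1. It was called enriched (log2 ratio of at least 1) at 1.02 ± 0.172 in Kelly at 6 days and 1.30 ± 0.19 in NGP. The Kelly value lay at the threshold and fell below it with RLE factors and by DESeq2 (0.89), without the low-count filter (0.99) and without control RIP replicate 3 (0.92), control input 1 or 3 or STM2457 input 1 (1.00, rounded up). Enriched genes made up 26.3% of those tested for Kelly at 1 day, 25.8% for Kelly at 6 days, 20.9% for NGP and 1.61% for the xenograft, so 1 enriched member of 10 is below the background in both. INA was below the typical gene in NGP, with ratios of 0.572, 0.424 and 0.490 (log2 -1.11 ± 0.175, adjusted p 1.15e-05), and in Kelly at 1 day, with 0.621, 0.587 and 0.547 (log2 -0.71 ± 0.194, adjusted p 0.00544), but not in Kelly at 6 days, with 1.240, 1.030 and 1.769 (log2 0.39 ± 0.235, adjusted p 0.172). In the added comparison between the lines, 4 members differed (46.1% of 13684 genes did). Besides STMN2 these were INA (log2 1.68 ± 0.277, adjusted p 0.000195), NEFH (-1.15 ± 0.332, 0.0107) and TUBB3 (1.10 ± 0.426, 0.0466). With the mitochondrial scaling NEFH turned to 3.04, below the shifted median of 3.91, and INA at 5.91 and TUBB3 at 5.11 lay above it; TUBB3 lost the call without the low-count filter (0.062) and without any of 8 of the 12 libraries (0.0808 to 0.132).

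The other members had control ratios closer to the typical gene. GAP43 was at log2 0.37 to 0.55, MAP2 at 0.15 to 0.26 and NEFL at -0.48 to -0.33 in all 3 cell line experiments. MAPT was higher than the typical gene in Kelly at 1 day (0.37 ± 0.107) and lower in Kelly at 6 days (-0.53 ± 0.172) and NGP (-0.77 ± 0.335). In NGP it was called as depleted without control RIP replicate 1 (-1.02, adjusted p 0.0248). Over all 10 members the median log2 ratio was -0.014, -0.091, -0.32 and 0.32 in the 4 experiments, against -0.066, -0.10, 0.082 and -0.16 over all genes.

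With STM2457, the pulldown ratio of 5 members rose relative to the typical gene in Kelly at 1 day, and PRPH and STMN2, the 2 most depleted members, were among them. The background was 17.2% of 13669 genes called in either direction, 1303 of them up and 1042 down. PRPH went from 0.074, 0.087 and 0.097 to 0.194, 0.160 and 0.148, a 2.08-fold rise (log2 1.05 ± 0.18, adjusted p 0.00161). STMN2 went from 0.200, 0.218 and 0.265 to 0.366, 0.414 and 0.369 (log2 0.85 ± 0.13, adjusted p 0.000746). GAP43 rose from 1.182, 1.302 and 1.255 to 2.444, 2.422 and 2.207 (log2 1.02 ± 0.111, adjusted p 6.2e-05), the smallest adjusted p of the 10. TUBB3 rose from 1.231, 0.983 and 1.197 to 2.230, 1.889 and 1.957 (log2 0.93 ± 0.193, adjusted p 0.00548), and NEFH from 0.806 to 0.892 up to 0.996 to 1.060 (log2 0.38 ± 0.0734, adjusted p 0.00337). In each of these the treated libraries lay wholly above the controls, though the share of all genes separated in this way was not counted. MAP2 did not pass by edgeR (log2 0.29 ± 0.139, adjusted p 0.193) but did by DESeq2 (0.0422).

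These rises are relative to the other mRNAs of the same libraries. Scaled to the mitochondrial mRNAs, the all-gene median in Kelly at 1 day went from -0.028 to -1.46, and all 10 members had a lower ratio with STM2457. PRPH was then at -0.37, GAP43 at -0.43, TUBB3 at -0.51, STMN2 at -0.59 and NEFH at -1.06, all still above that median. INA was the member that stood lowest under both scalings. Its ratios in Kelly at 1 day were 0.621, 0.587 and 0.547 with DMSO and 0.208, 0.443 and 0.329 with STM2457, without overlap (log2 -0.74 ± 0.274, adjusted p 0.0841), and -2.20 with the mitochondrial scaling (adjusted p 1.03e-05). Without STM2457 RIP replicate 1 or 2 it passed under the TMM scaling too (0.0468 and 0.00273).

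**Figure D4:**
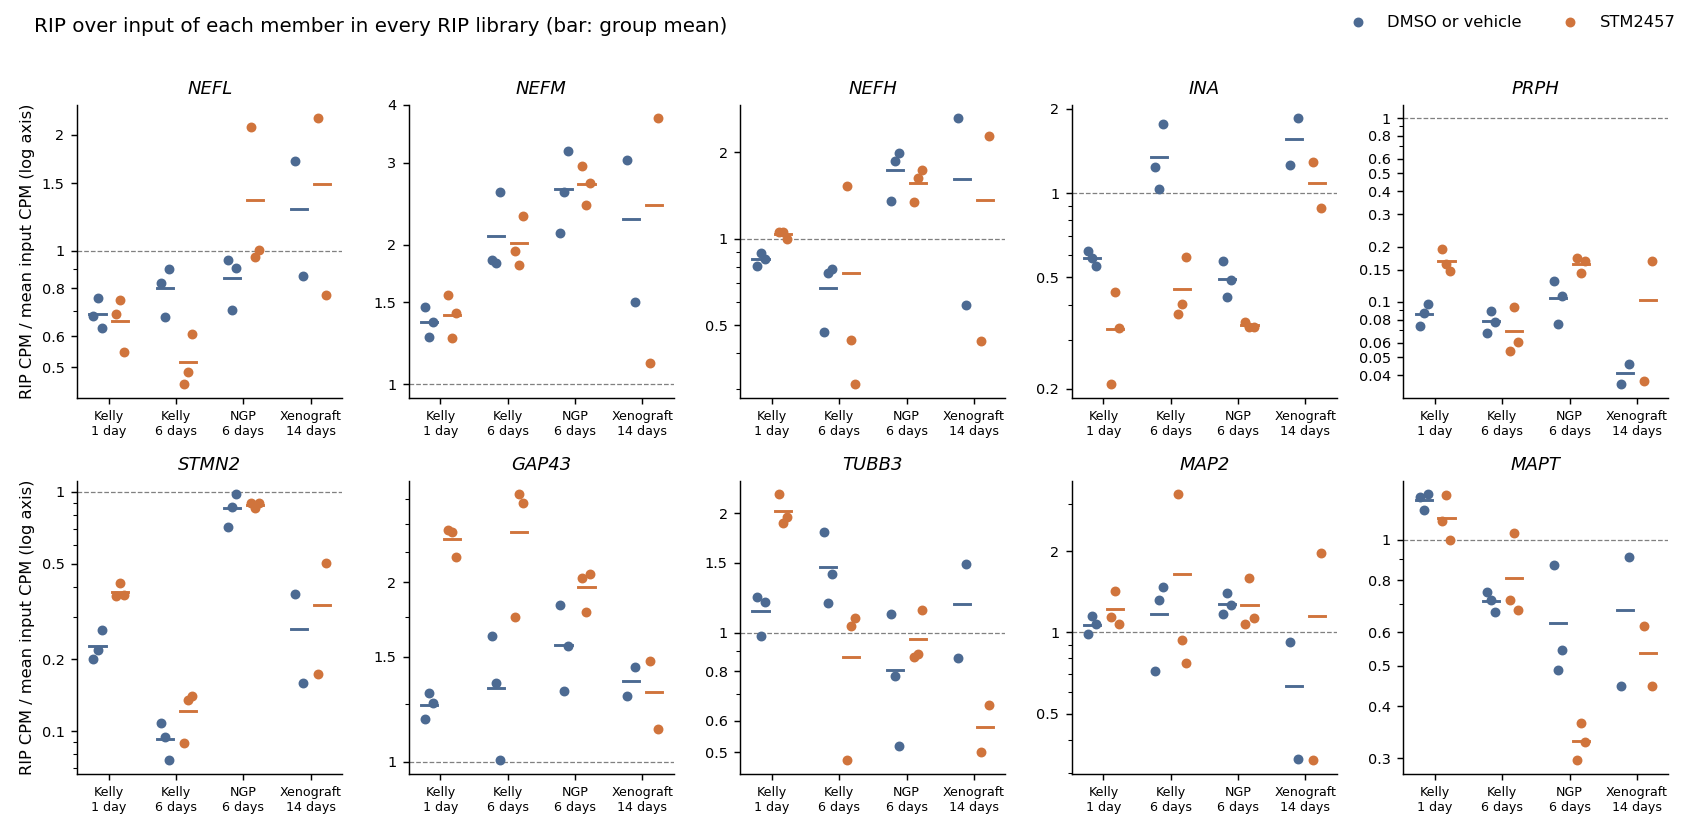
RIP over input of each member in every RIP library, as RIP CPM over the mean input CPM of the same group on a log axis; blue points are DMSO or vehicle, orange points STM2457, bars are group means and the dashed line marks a ratio of 1. PRPH stays below 0.2 in all libraries, INA with STM2457 lies below its controls in the 3 cell line experiments, and the xenograft points are widely spread.

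At 6 days in Kelly no member's ratio change was called, where 2.06% of 13324 genes were. The all-gene median of the fitted change was 0.20. The ratios by library totals gave lower changes than the fit. For PRPH their mean went from 0.0785 to 0.0695 with STM2457, where the fitted log2 change was 0.20 ± 0.283. INA again had lower ratios with STM2457, at 0.372, 0.403 and 0.589 against 1.240, 1.030 and 1.769 (log2 -1.20 ± 0.333, adjusted p 0.0878). GAP43 had higher ones, at 1.746, 2.806 and 2.715 against 1.623, 1.356 and 1.006 (log2 1.24 ± 0.313, adjusted p 0.0644). Both groups were separate in both genes, and DESeq2 called both (adjusted p 0.0211 and 0.00889). INA also passed without control RIP replicate 3 or STM2457 RIP replicate 3 (0.0456 and 0.0226), and GAP43 without control RIP replicate 1 or STM2457 RIP replicate 1 (0.0457 and 0.00323). Without the latter, the RIP library that stood apart, STMN2 passed as well (0.97, adjusted p 0.00998), and the change of NEFH went from 0.50 to -0.43 and that of MAP2 from 0.83 to -0.054. With the mitochondrial scaling every member's value was below 0, with INA at -3.88 against a median of -2.20 over all genes.

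In NGP and in the xenograft no member and no gene had a called change of the ratio (0% of 13088 and 0% of 12626 genes by edgeR, with 764 and 809 genes at an unadjusted p below 0.05 and 2 and 189 called by DESeq2). INA in NGP read 0.346, 0.333 and 0.332 with STM2457 against 0.572, 0.424 and 0.490, without overlap (log2 -0.46 ± 0.245, adjusted p 0.839). PRPH in NGP read 0.173, 0.143 and 0.167 against 0.130, 0.0759 and 0.1075, also without overlap (log2 0.72 ± 0.282, adjusted p 0.839). In the tumours the standard errors of the members' changes ran from 0.605 to 1.58 on the log2 scale, and a doubling could not be told from no change.

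The wider cytoskeletal and growth cone genes moved in both directions. Over 6 lists with 80 genes, 24 of 78 tested rose and 18 fell in Kelly at 6 days, 15 rose and 11 fell at 1 day, and 4 of 77 rose and 3 fell in NGP. Over all genes, 11.9% rose and 14.7% fell in Kelly at 6 days, 9.41% and 8.06% at 1 day, and 2.07% and 2.16% in NGP. In Kelly at 6 days, the microtubule-associated proteins had 10 of 20 called up and 2 down, led by DCLK2 (log2 0.68 ± 0.127) and MAP7D2 (-0.38 ± 0.0839), with a list median of 0.18. The growth cone membrane and actin proteins had 8 of 19 up and 5 down, from the adhesion molecule NCAM1 (0.61 ± 0.0639) to the actin regulator CAP1 (-0.39 ± 0.105). Among tubulins 3 of 11 rose and 5 fell, with TUBB2A at 0.49 and TUBA1C at -0.39. Among axonal motors 1 of 16 rose and 4 fell, with the kinesin KIF3C at 0.67 and the dynein chain DYNC1I1 at -0.66. Of the stathmins and collapsin response mediators 1 of 8 rose, DPYSL2 (0.39), and 1 fell, STMN1 (-0.26). Among other intermediate filaments, NES, the filament of neural progenitors, rose (0.35 ± 0.0586) and GFAP, the astrocytic filament, fell (-1.55 ± 0.254).

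In NGP the largest change on these lists was that of VIM, the mesenchymal intermediate filament, at a log2 rise of 2.22 ± 0.182 (adjusted p 5.36e-08), and 3 of 4 tested other intermediate filaments rose. The summed mesenchymal markers, VIM included, were 1082 to 1467 CPM in NGP controls and 1322 to 2015 CPM with STM2457. Most of that sum was TWIST1 (945.9 to 1346 and 1012 to 1719 CPM), while YAP1 and NOTCH2 were at 0. Besides VIM (24.9 to 42.2 and 173.6 to 177.5 CPM), FN1 was higher without overlap (23.9 to 31.0 and 55.4 to 60.95 CPM). TWIST1, PRRX1, CD44, COL1A1, SNAI2 and FOSL1 overlapped between the groups. TUBA4A (-1.96 ± 0.472), MAP6 (-1.24 ± 0.205) and CNTN1 (-0.85 ± 0.202) fell in NGP, and KIF3C rose (0.60 ± 0.16). In the controls, the stathmins and collapsin response mediators lay well below the typical gene in pulldown, as STMN2 did in Kelly. Of 8, 5 were depleted in Kelly at 1 day and 6 in each of the other cell line experiments. The list medians were -1.91, -1.87 and -1.89. Over all genes, 29.1%, 27.3% and 19% were depleted, and the medians were -0.066, -0.10 and 0.082. Other lists shared the low pulldown in Kelly. At 1 day, 12 of 16 axonal motors and 13 of 19 growth cone membrane and actin genes were depleted (medians -1.69 and -1.75). At 6 days these were 8 of 16 and 10 of 20 (-1.22 and -1.39), and in NGP 4 of 16 and 5 of 19 (-0.28 and -0.52).

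Among the 22 inputs, centred within each experiment on the log2(CPM + 1) scale, the members did not vary as a block. The closest pairs of members were NEFL with PRPH (Pearson's r 0.751), NEFL with INA (0.701) and INA with PRPH (0.671), and NEFM went with NEFH (0.628) rather than with NEFL (0.227). Out of 6968 genes, those most like the members were STMN3 for PRPH (0.928), HOXC6 for NEFL (0.927), EIF4EBP2 for INA (0.925), LIG3 for TUBB3 (0.921), CALD1 for NEFM (0.903) and LUC7L3 for NEFH (0.852). MAP2 was most like GSPT1 (0.965), MAPT most like MMP15 (0.816), GAP43 most like ANKRD11 (0.797) and STMN2 most like MRPL58 (0.760). These correlations are descriptions over libraries that share treatment, depth and scaling.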

How the data were processed

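The deposited values were raw counts of fragments per gene, which the authors made with featureCounts (paired ends, exons summed by gene name, GENCODE 33 protein-coding genes), per the file headers. Reads were trimmed with Trimmomatic 0.36 and aligned with HISAT2 2.1.0, and Subread 1.5.3 was used, per the submitters' processing notes; the build is GRCh38. Spike-in counts were not analysed here. The header shows no strand option, so antisense reads cannot be told apart and none that would keep fragments shared by 2 genes.

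The 10 members and the lists were chosen with earlier results of these data known. Counts were tested in R 4.3.3 with edgeR 4.0.16 (quasi-likelihood, TMM factors, filterByExpr, two-sided, Benjamini-Hochberg over all genes tested, threshold 0.05). Each experiment had a fit of its inputs and a fit of inputs and RIP with treatment, library type and their interaction; a call of the control ratio also needed a log2 ratio of at least 1 in size. Changes between experiments were interaction terms. CPM values are counts scaled by the library's total of assigned fragments, and TPM values use the merged exon length in the tables. Replicates differed by more than sampling noise in all 40 pairs (lowest chi-square per degree of freedom 2.73). The numbers were not taken to pair control with STM2457 libraries of the same type. In no experiment did every such same-numbered pair correlate above 0.1. In Kelly inputs r ran from -0.370 to 0.062, and in NGP from -0.321 to 0.425, where RIP pairs 1 and 2 reached 0.229 and 0.425. With 2 libraries a group, r in the xenograft has a fixed size and can differ only in sign. Whether a RIP library pairs with the input of the same number was not examined, so the check does not speak to that pairing. The main fits had no block.

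Alternatives were RLE factors, no filter, DESeq2 1.42.0, factors from the 13 mitochondrial mRNAs, the replicate number as a block, and each library left out. The mitochondrial factors for the control ratio and the comparison of that ratio between lines were added after seeing the data. All 10 members are named; of each list, the called gene with the largest rise and the largest fall in Kelly at 6 days and NGP (mean log2 CPM of at least 2); and for each member the gene with the highest correlation (at least 10 CPM in every experiment). The fits were tested on simulated data. A comparison of stretches of sequence between members is not reported here.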

Additional observations from a re-analysis of the deposited data

Results flagged for a closer look

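The input responses of STMN2 and GAP43 differed between the times in Kelly, with a log2 difference (6 days minus 1 day) of -0.40 for STMN2 and -0.44 for GAP43, by an interaction test. The control pulldown ratio differed between Kelly and NGP at 6 days, again by an interaction test, for NEFH (log2 -1.15), INA (1.68), STMN2 (-2.98) and TUBB3 (1.10). Under the mitochondrial scaling NEFH and STMN2 turn to 3.04 and 1.01 while the median over all genes becomes 3.91.

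Other results were flagged because, by CPM, all treated libraries moved one way in 1 experiment and the opposite way in another. How often this happens over all genes was not counted. With so few libraries a group, such separation can also arise by chance, so these results are a description only. The changes given are the fitted ones. The NEFM input had changes of 0.23 in Kelly at 1 day and 0.18 at 6 days against -0.35 in NGP; the difference between Kelly at 6 days and NGP did not pass (log2 0.55, adjusted p 0.0829), and that between Kelly at 1 day and NGP was not tested. For the STMN2 input the changes were 0.36 in Kelly at 1 day and -0.49 in NGP, a difference that was not tested. The INA input changed by 0.25 and 0.34 in Kelly at 1 and 6 days and by -0.097 in the xenograft, which was not tested. The MAP2 input was lower in all treated libraries of Kelly at 1 day (-0.21) and higher by CPM in all of Kelly at 6 days, where the TMM-scaled change was -0.0045; the difference did not pass (log2 0.22, adjusted p 0.08). The ratio change of NEFL was -0.27 in Kelly at 6 days and 0.78 in NGP, and that of TUBB3 was 0.93 at 1 day and -0.38 at 6 days in Kelly, with -1.09 in the xenograft. Neither of these was tested between experiments.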

How the results depend on the processing

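Of the members' values under other settings that used all libraries, 601 kept their direction and their side of the threshold, 34 gained a call, 13 lost one and 57 turned sign; with 1 library left out the counts were 1380, 24, 37 and 79. Of 80 mean input levels, 48 moved by over 1 SD when CPM used TMM-scaled library totals. The cause of the changes was not tested. With the mitochondrial factors, the number of members called moved to 8 for the control ratio and 8 for the ratio change in Kelly at 1 day. Over all genes these factors called 8064 and 8336 of 13669. In Kelly at 6 days the members called were 9 and 4, where 11010 and 3938 of 13324 genes were called. For the control ratio in the xenograft the number was 0, as over all 12626 genes. For the ratio difference between the lines it was 9, where 10544 of 13684 genes were called. DESeq2 called 2 members for the ratio change in Kelly at 6 days (947 of 15078 genes) and 2 for the xenograft control ratio (2280 of 13725). It called 2 for the response difference between Kelly and NGP (430 of 15286) and 3 for the NGP input (719 of 13857). Without the low-count filter, 3 were called for the NGP input (738 of 15427 genes) and 4 for the response difference between the times in Kelly (1610 of 17386). With the replicate number as a block, 3 were called for the NGP input (NEFL, PRPH and STMN2), where 870 of 12289 genes were. In Kelly at 6 days NEFM and TUBB3 then lost their input calls (adjusted p 0.0759 and 0.0771). With 1 library left out, the number called ran from 0 to 2 for the ratio change in Kelly at 6 days (0 to 1437 genes). It ran from 0 to 3 for the NGP input (128 to 459 genes). For the response difference it ran from 2 to 4 between the times (814 to 1533 genes) and from 0 to 1 between the lines (94 to 276 genes).

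With the mitochondrial factors the sign turned for the control ratio in Kelly at 1 day of NEFL 1.15, NEFH 1.45 and INA 0.92, in Kelly at 6 days of NEFL 4.69, NEFH 4.46, PRPH 1.24, STMN2 1.36 and MAPT 4.39, in NGP of NEFL 0.42, STMN2 0.35, TUBB3 0.33 and MAPT 0.0061, and in the xenograft of STMN2 0.084, MAP2 1.26 and MAPT 2.15. The median over all genes then became 1.57, 4.77, 0.80 and 2.02. For the ratio change it turned in Kelly at 1 day for NEFL -1.41, NEFM -1.30, NEFH -1.06, PRPH -0.37, STMN2 -0.59, GAP43 -0.43, TUBB3 -0.51 and MAP2 -1.16, in Kelly at 6 days for NEFM -2.29, NEFH -2.20, PRPH -2.33, STMN2 -1.52, GAP43 -1.09, MAP2 -1.93 and MAPT -1.91, in NGP for NEFM -0.14, STMN2 -0.15, TUBB3 -0.003 and MAP2 -0.20, and in the xenograft for STMN2 -0.11. For the ratio difference between the lines it turned for NEFM 4.15, NEFH 3.04, PRPH 3.80, STMN2 1.01 and GAP43 3.81. With RLE factors, no filter and DESeq2 in that order, near-zero values turned for the ratio change of MAPT in Kelly at 1 day (0.047, 0.095 and 0.047), and for the input change in Kelly at 6 days of NEFH (0.0057, 0.0054 and 0.0077) and MAP2 (0.0057, 0.0063 and 0.0074). The same held for the response difference between the times of NEFL (0.0044, 0.056 and 0.0062) and, without the filter, NEFM (0.028). RLE factors and DESeq2 also turned the xenograft ratio change of NEFM (0.018 and 0.018) and the ratio difference of GAP43 (0.0026 and 0.0023).

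Leaving out 1 library turned the input change of PRPH in Kelly at 1 day (-0.033 to 0.14), of NEFH (-0.052 to 0.042) and MAP2 (-0.012 to 0.014) in Kelly at 6 days, of GAP43 (-0.049 to 0.33), TUBB3 (-0.15 to 0.20) and MAPT (-0.38 to 0.025) in NGP, and of NEFH (-0.11 to 0.40), STMN2 (-0.038 to 0.19), TUBB3 (-1.03 to 0.92) and MAP2 (-1.37 to 0.022) in the xenograft. It turned the ratio change of NEFL (-0.069 to 0.16) and MAPT (-0.15 to 0.077) in Kelly at 1 day, of NEFH (-0.43 to 0.86), PRPH (-0.089 to 0.39) and MAP2 (-0.054 to 1.15) in Kelly at 6 days, and of NEFM (-0.044 to 0.30), NEFH (-0.32 to 0.076), STMN2 (-0.012 to 0.26) and MAP2 (-0.11 to 0.17) in NGP. In the xenograft it turned the ratio change of NEFL (-0.98 to 1.05), NEFM (-0.77 to 0.48), NEFH (-1.57 to 0.94), STMN2 (-0.35 to 0.87), GAP43 (-0.54 to 0.35), TUBB3 (-1.76 to 0.20), MAP2 (-0.63 to 1.58) and MAPT (-0.91 to 0.40), and the control ratio of NEFL (-0.10 to 0.69), NEFH (-0.65 to 1.32) and TUBB3 (-0.29 to 0.69). It also turned the response difference between the times of NEFL (-0.07 to 0.097) and NEFM (-0.083 to 0.05), and the ratio difference of NEFL (-0.019 to 0.26), NEFM (-0.35 to 0.065), GAP43 (-0.33 to 0.15) and MAP2 (-0.13 to 0.33).

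Over all genes, the ratio change in Kelly at 6 days was called for 275 genes, 947 by DESeq2, 3938 with mitochondrial factors, 0 with the block and 0 to 1437 with 1 library left out; in Kelly at 1 day it was 2345, or 8336 with mitochondrial factors. The control ratio in Kelly at 6 days was called for 7074, or 11010 with mitochondrial factors, and the ratio difference for 6308, or 10544. The NGP input had 520 calls, 870 with the block and as few as 128 with 1 library left out, and the input in Kelly at 1 day 2315 and as few as 1249. The xenograft control ratio had 474 calls, against 1207 without the filter, 2280 by DESeq2, 229 with the block and 0 with mitochondrial factors, and its input 0 calls against 100, 122 and 65 by the first 3. The response difference between Kelly and NGP had 183 calls, or 430 by DESeq2. The xenograft, with 2 libraries a group at low depth, limits every statement on the tumours.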
